A study of Mus musculus with 3 samples.

Results

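The genes described here are 9 effector and regulatory cytokine genes, *Ifng*, *Tnf*, *Il2*, *Il10*, *Il17a*, *Il21*, *Lta*, *Ltb* and *Ebi3*, followed across lymphocyte types of a mouse tumor and by how long the cells had been in it. They were taken by gene symbol from the 32285 genes of the count tables, and all 9 were found. The data are scRNA-seq of TILs (tumor-infiltrating leukocytes) from subcutaneous MC38-Ova tumors, an ovalbumin-expressing mouse colon carcinoma line, in C57BL/6 Kaede mice. Kaede is a photoconvertible protein that turns from green to red under violet light, so that cells present in a tumor on the day of illumination stay marked. Each tumor arose from 250000 injected cells, was photoconverted on day 13 and was harvested on day 15, and every group carried an isotype control treatment. Kaede-green (KG+) cells had entered the tumor after photoconversion, with 2 libraries (biological replicates 1 and 2), and Kaede-red (KR+) cells had been there since at least photoconversion, with 1 library. Live CD45+ TER119- Kaede+ cells had been sorted, leaving out CD11b+NK1.1- cells, so most myeloid cells were removed before sequencing. The study states a range of adult ages for its mice as a whole, and neither the ages for each library nor the number of mice pooled in it are given in the sources used here.

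Interferon-γ and TNF are the classical effector cytokines of NK cells and T cells, acting on tumor cells, macrophages and endothelium. IL-2 feeds the growth of T cells and is taken up by Tregs, which carry its high-affinity receptor, and IL-21 is made chiefly by helper T cells. IL-17A is a cytokine of barrier γδ T cells and of Th17 cells. Lymphotoxin-α forms a soluble trimer of its own or joins lymphotoxin-β, which anchors the complex in the membrane. IL-10 restrains myeloid and T cells, and EBI3 is a shared chain of IL-27 and IL-35, the latter a cytokine attributed to Tregs.

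The genes lie on 4 chromosomes, at the positions given by the GENCODE vM21 annotation of GRCm38. *Ltb* (chr17:35194439-35196320, plus strand), *Tnf* (chr17:35199381-35202007, minus strand) and *Lta* (chr17:35203165-35205351, minus strand) follow each other, with 3060 bases between *Ltb* and *Tnf* and 1157 between *Tnf* and *Lta*. *Ebi3* (chr17:55952640-55957022, plus strand) lies farther along chromosome 17. *Il2* (chr3:37120523-37125959) and *Il21* (chr3:37222759-37232636) share the minus strand of chromosome 3 and are 96799 bases apart. *Il17a* (chr1:20730905-20734496) and *Il10* (chr1:131019845-131024974) are on the plus strand of chromosome 1, and *Ifng* (chr10:118441046-118445892) is on the plus strand of chromosome 10. The promoters of *Ifng*, *Tnf*, *Il2* and *Il17a* are shown because these genes carry the results on effector cells, on CD4 T cells and on γδ T cells. The sequences are the 250 bases before the RefSeq start on GRCm38.p6, 5′ to 3′ on the gene's strand, and capitals mark the letters TATAAA on the gene's strand (the TATA box) and GGAAA (a core letter run of NFAT sites), TGANTCA (AP-1) and AGGTCA (nuclear receptors) on either strand, so that TTTCC and TGACCT are matches on the opposite strand.
Ifng promoter, chr10:118440796-118441045, plus strand: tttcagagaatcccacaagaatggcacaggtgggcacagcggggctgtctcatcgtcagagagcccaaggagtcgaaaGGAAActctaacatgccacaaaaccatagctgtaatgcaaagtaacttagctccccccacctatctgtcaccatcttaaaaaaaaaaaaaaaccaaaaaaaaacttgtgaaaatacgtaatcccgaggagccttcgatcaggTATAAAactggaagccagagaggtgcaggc
Tnf promoter, chr17:35202008-35202257, minus strand: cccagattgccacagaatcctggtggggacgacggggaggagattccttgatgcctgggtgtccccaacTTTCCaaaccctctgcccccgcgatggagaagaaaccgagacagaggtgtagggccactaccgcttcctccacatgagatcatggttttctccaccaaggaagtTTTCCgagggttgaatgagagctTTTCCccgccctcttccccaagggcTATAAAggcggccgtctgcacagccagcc
Il2 promoter, chr3:37125955-37126204, minus strand: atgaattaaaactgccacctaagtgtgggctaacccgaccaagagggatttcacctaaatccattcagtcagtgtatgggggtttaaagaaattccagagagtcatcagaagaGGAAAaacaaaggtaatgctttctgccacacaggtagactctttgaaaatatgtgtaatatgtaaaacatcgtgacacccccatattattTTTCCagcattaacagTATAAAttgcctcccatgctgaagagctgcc
Il17a promoter, chr1:20730655-20730904, plus strand: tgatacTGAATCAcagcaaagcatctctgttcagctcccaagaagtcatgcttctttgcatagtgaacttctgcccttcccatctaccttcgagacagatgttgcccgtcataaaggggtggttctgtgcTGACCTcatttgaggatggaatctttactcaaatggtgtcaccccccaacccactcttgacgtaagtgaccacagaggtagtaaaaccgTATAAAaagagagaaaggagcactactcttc
All 4 windows shown held TATAAA, which began 30 bases before the start in *Ifng*, 29 in *Tnf*, and 31 in *Il2* and *Il17a*. Of 32851 promoter windows of the same length, 7.59% held TATAAA, 55.6% GGAAA, 6.75% TGANTCA and 14.0% AGGTCA. The letters GGAAA occurred in the windows of *Ifng*, *Tnf* and *Il2*, and the *Il17a* window held TGANTCA and AGGTCA in its place. No match overlapped another. Over all 8 members with a window, TATAAA was in 5, the other being *Lta*, where it began 167 bases before the start, and *Il21*, *Ltb* and *Ebi3* held none. These are letter matches, which show no binding.

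The 3 libraries held 87193225, 129438292 and 175848894 unique molecular identifiers (UMIs, each a counted mRNA molecule) in Kaede-green 1, Kaede-green 2 and Kaede-red. Of their 10498, 12327 and 11956 barcodes, 10000, 11078 and 10865 passed the filter on genes and mitochondrial UMIs, and the libraries shared 20 to 36 barcodes in pairs. Cells were assigned by raw UMIs of genes that are not among the 9. NK cells had at least 1 UMI of *Ncr1* and at most 1 of *Cd3e* (7944 cells), and ILC-like cells were those of this gate with at least 2 UMIs of *Rora* and none of *Eomes* (507 cells, removed from the NK gate). CD8 T cells had at least 2 UMIs of *Cd3e* and at least 1 of *Cd8a* and of *Cd8b1* (9287 cells). CD4 T cells had at least 2 UMIs of *Cd3e*, at least 1 of *Cd4* and none of *Foxp3* (1056 cells), and Tregs had at least 2 of *Cd3e* and at least 1 of *Foxp3* (1766 cells). γδ T cells had at least 1 UMI of *Cd3e* and of *Cd163l1* (618 cells). *Cd163l1* is known from IL-17-producing γδ T cells, so the gate holds that kind and leaves out others. Cells that met several gates, 208, 401 and 332 in the 3 libraries, were left out.

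Markers not used by the gates went with the names for most of them. *Trdc*, the constant segment of the δ chain, was at 2280 CPM (the gene's UMIs scaled to the same total of all UMIs in each gate and library) in the γδ T gate and at 14.0 to 86.5 in the others, as means over the libraries. *Prf1*, encoding perforin, was at 791 in NK cells, 437 in CD8 T cells, 270 in ILC-like cells and 100 to 113 in the other gates. The ILC markers *Il7r* and *Cxcr6* were at 72.0 and 75.4 CPM in ILC-like cells, above NK cells (12.7 and 8.05) and below every T cell gate (at least 213 and 156), so they do not set ILC-like cells apart from T cells. *Cd40lg*, a helper T cell gene, was at 69.3 in CD4 T cells and at most 4.44 elsewhere. The CD4 T gate also held Treg genes, with *Ikzf2* at 468 CPM against 1370 in Tregs and *Il2ra* at 135 against 595, and its summed Treg markers were at 1375 to 2402 CPM against 4432 to 5303 in Tregs. Of 4 tumor epithelium markers, *Krt8* and *Krt19* were at 0 in all gates, *Krt18* was at 0.261 to 2.33 CPM and *Epcam* at 3.28 to 9.30. The CD4 T gate also held dendritic cell genes, with *Siglech* at 23.1 and *Ccr9* at 22.4 CPM. Its 4 dendritic markers summed to 0.622 to 113 CPM over the libraries, against at most 60.6 in any other gate.

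For tests between cell types, UMIs were summed per library and gate and fitted across 11032 genes with edgeR's quasi-likelihood test, with the library as a block, and adjusted p is the Benjamini-Hochberg value over all these genes. Fold changes are log2 values with standard errors (SE) from 3 libraries. The library numbers name separate samples, but 1 library was of another color, so a p-value rests on these 3 libraries only. The study divided its sorted TILs by color, and whether Kaede-red shares tumors with a Kaede-green library is not given. The 3 libraries may therefore not be independent sets of animals. All 18 sums were fitted together with a shared dispersion trend. The scatter of gates outside a comparison therefore also enters its p-value. Every difference given below as passing in this fit had the same direction within each of the 3 libraries. Calls gained only under alternatives did not always, since *Ifng* in CD4 T cells was at 0.72, 0.33 and 2.12 times the NK level. *Il21* had too few UMIs for the filter and was not tested, so 8 of the 9 genes were.

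**Figure D1:**
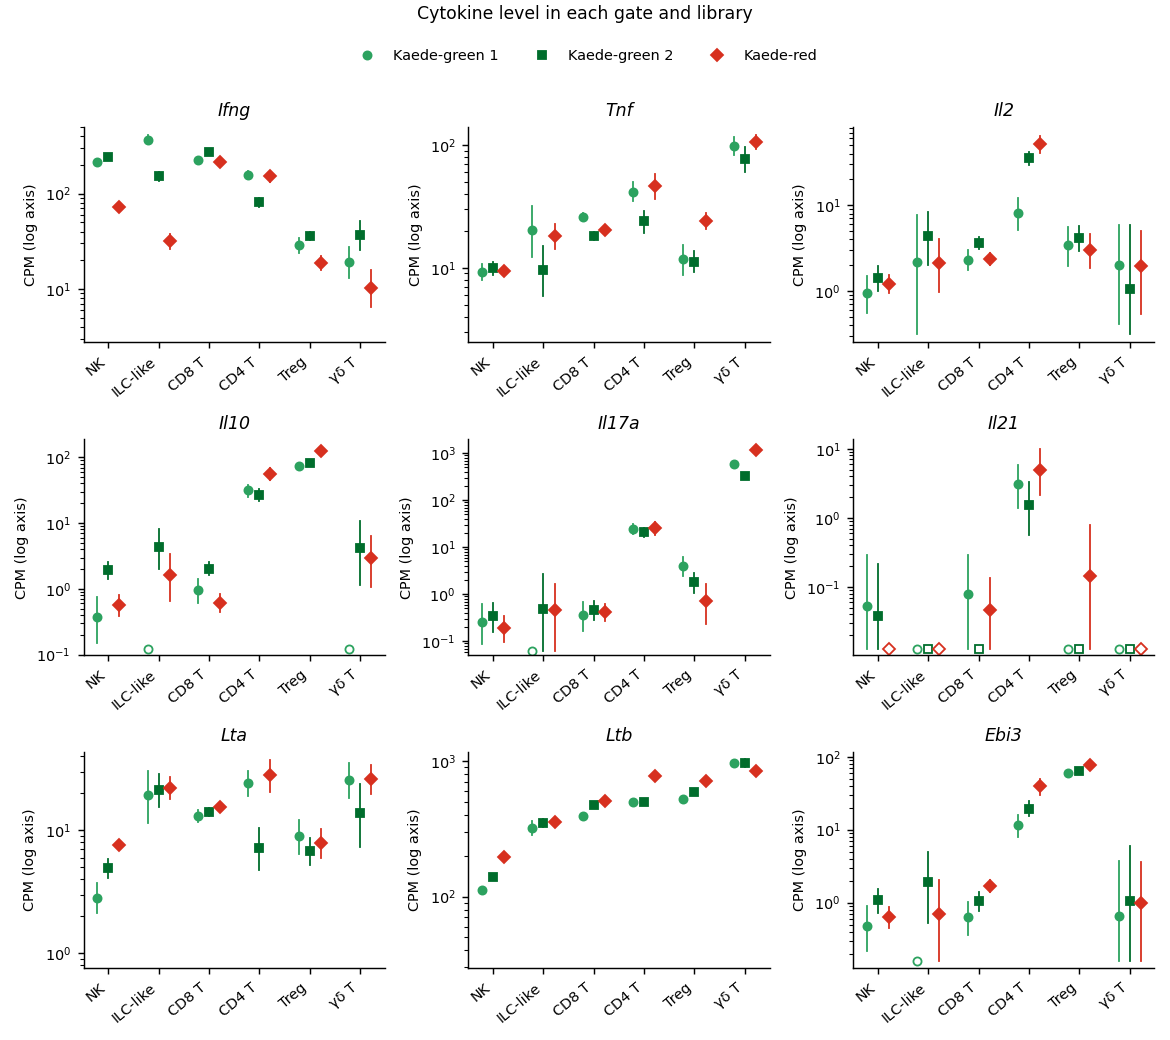
Level of each cytokine gene in CPM (log axis) by gate, with 1 point for each library and open points at the bottom for libraries with 0 UMIs. *Il17a* stands at 331 to 1157 CPM in γδ T cells and at most 25.5 in any other gate, whereas *Ltb* is above 100 CPM in all 6 gates.

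*Ifng*, the gene of interferon-γ, was high in NK cells, CD8 T cells and CD4 T cells and low in Tregs and γδ T cells. ILC-like cells varied most between libraries, and their Kaede-red level lay within the range of Tregs. In CD8 T cells it was at 225, 275 and 214 CPM in Kaede-green 1, Kaede-green 2 and Kaede-red (mean 238 ± 33.0, SD, n = 3). NK cells held 216, 244 and 71.9 CPM (177 ± 92.2), ILC-like cells 368, 151 and 31.7 (184 ± 171), and CD4 T cells 156, 80.9 and 152 (130 ± 42.3). A single ILC-like cell held 253 of the 342 UMIs in Kaede-green 1. The log2 fold change of ILC-like against NK cells was -0.20 (adjusted p = 0.951). Without the top cell of each sum it was -1.14 (adjusted p = 0.128). Each of these 4 gates overlapped with the next in the order of means, whereas all CD8 T values lay above all CD4 T values. Kaede-red was the lowest library for *Ifng* in every gate but CD4 T cells. Tregs, at 28.7, 36.0 and 18.7 CPM, lay below CD4 T cells in all libraries (log2 fold change -2.30 ± 0.51, adjusted p = 0.00462). γδ T cells, at 19.3, 37.2 and 10.4 CPM, also lay below CD4 T cells (-2.71 ± 0.63, adjusted p = 0.00783), and Tregs and γδ T cells overlapped. Both calls rested on leaving out cells of several gates, since with those cells the adjusted p was 0.0515 for Tregs and 0.166 for γδ T cells, and without Kaede-green 1 it was 0.0558 for γδ T cells. CD8 T cells did not pass against NK cells (0.57 ± 0.44, adjusted p = 0.396), with 1.04, 1.13 and 2.97 times the NK level in the 3 libraries. CD4 T cells did not pass against CD8 T cells (-0.99 ± 0.47, adjusted p = 0.135), but they did without Kaede-red (-1.21, adjusted p = 0.00847), with each cell thinned to 2000 UMIs (0.0256) and without the top cell of each sum (0.0277). Against NK cells they had an adjusted p of 0.534 with all libraries and 0.013 without Kaede-red, where the log2 fold change was -1.08, and it was 0.0307 with thinned cells.

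*Tnf* was highest in γδ T cells and lowest in NK cells. γδ T cells held 98.9, 76.6 and 107 CPM (94.0 ± 15.6), above every library of any other gate. CD4 T cells followed with 41.9, 23.9 and 46.6 CPM, and the γδ T level was higher by 1.39 ± 0.23 on the log2 scale (adjusted p = 0.000384). CD8 T cells, at 26.1, 18.1 and 20.5 CPM, exceeded NK cells, at 9.26, 9.90 and 9.36 CPM (1.11 ± 0.19, adjusted p = 0.000313). NK cells were the least variable of all gates for *Tnf*, at 9.51 ± 0.342 CPM. CD4 T cells exceeded CD8 T cells (0.66 ± 0.21, adjusted p = 0.0308) and NK cells (1.77 ± 0.22, adjusted p = 1.06e-05). The former call was lost when any of the libraries was left out (adjusted p = 0.0726 to 0.113, without Kaede-red and without Kaede-green 1). With all 3 libraries it was also lost without the top cell of each sum (0.0863), with each cell thinned to 2000 UMIs (0.107) and with cells of several gates kept (0.0976). Tregs, at 11.7, 11.3 and 24.1 CPM, were below CD4 T cells (-1.25 ± 0.23, adjusted p = 0.00116), and this was lost without Kaede-green 1 (adjusted p = 0.057). ILC-like cells, at 20.5, 9.66 and 18.1 CPM, did not pass against NK cells (0.62, adjusted p = 0.296).

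*Il2* had its highest level in CD4 T cells, at 8.10, 35.4 and 51.0 CPM, with every other gate at or under 4.35 CPM in every library. It was higher in CD4 T cells than in CD8 T cells by 3.27 ± 0.35 on the log2 scale (adjusted p = 1.05e-05) and than in NK cells by 4.43 ± 0.38 (adjusted p = 1.67e-07). Tregs were lower than CD4 T cells by a log2 fold change of -3.06 ± 0.38 (adjusted p = 4.45e-05) and γδ T cells by one of -3.93 ± 0.56 (adjusted p = 0.000121). The level came from few cells. A single CD4 T cell held 71 of 138 *Il2* UMIs in Kaede-green 2 and another 70 of 82 in Kaede-red, and without the top cell of each library the gate stood at 4.73, 17.2 and 7.54 CPM. The difference from CD8 T cells was then 1.78 (adjusted p = 0.000512), and that from Tregs -1.74 (adjusted p = 0.00108). CD8 T cells, at 2.30, 3.66 and 2.36 CPM, were above NK cells, at 0.947, 1.42 and 1.21 CPM (1.17 ± 0.35, adjusted p = 0.0207), which was lost without Kaede-green 2 (adjusted p = 0.23).

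*Il21*, its neighbor on chromosome 3, was rarer. CD4 T cells held 9, 6 and 8 UMIs in the 3 libraries, which is 3.04, 1.54 and 4.97 CPM. NK cells held 1, 1 and 0 UMIs, CD8 T cells 2, 0 and 3, Tregs 0, 0 and 1, and ILC-like and γδ T cells none. With 3 UMIs over the pooled libraries as the limit for a count of 0, CD4 T cells were at least 6.58-fold higher than ILC-like cells and at least 4.05-fold higher than γδ T cells, for counting error only.

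*Il17a* was concentrated in γδ T cells. γδ T cells held 592, 331 and 1157 CPM (891, 311 and 2345 UMIs). CD4 T cells held 24.3, 20.8 and 25.5 CPM, and the γδ T level was higher by 4.78 ± 0.32 on the log2 scale (adjusted p = 5.55e-08). NK, ILC-like and CD8 T cells stayed under 0.5 CPM in all libraries. CD4 T cells therefore exceeded CD8 T cells by 5.78 ± 0.43 (adjusted p = 2.33e-07) and NK cells by 6.51 ± 0.48 (adjusted p = 3.92e-08). Only 21 of the 1056 CD4 T cells held an *Il17a* UMI, and the top cells held 31, 46 and 21 of the 72, 81 and 41 UMIs. Tregs, at 4.04, 1.80 and 0.714 CPM, were below CD4 T cells (-3.60 ± 0.45, adjusted p = 4.31e-05), but with the cells of several gates kept the difference was -0.84 (adjusted p = 0.186).

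The lymphotoxin genes differed in how they were spread. *Ltb* was present in all gates, from 970, 973 and 841 CPM in γδ T cells to 111, 139 and 194 CPM in NK cells. Between them were Tregs (523, 588 and 709 CPM), CD4 T cells (500, 499 and 780), CD8 T cells (390, 473 and 511) and ILC-like cells (320, 349 and 355). ILC-like cells exceeded NK cells by 1.16 ± 0.15 on the log2 scale (adjusted p = 0.000271) without overlap, and CD8 T cells exceeded NK cells by 1.59 ± 0.15 (adjusted p = 5.9e-07). CD4 T cells were 1.85 ± 0.15 above NK cells (adjusted p = 1.37e-07). Tregs and CD4 T cells did not differ by the test (0.02 ± 0.15, adjusted p = 0.958). γδ T cells exceeded CD4 T cells (0.72 ± 0.15, adjusted p = 0.00376), though in Kaede-red by only 841 against 780 CPM. That call was lost without Kaede-green 1 (adjusted p = 0.1) or Kaede-green 2 (0.161).

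*Lta* was highest in γδ T cells (25.9, 13.8 and 26.2 CPM), ILC-like cells (19.4, 21.3 and 22.3) and CD4 T cells (24.3, 7.19 and 28.0), which overlapped. CD8 T cells had 13.1, 14.1 and 15.4 CPM. NK cells, at 2.84, 4.93 and 7.55 CPM, were below ILC-like cells by 1.94 ± 0.35 on the log2 scale (adjusted p = 0.00373) and below CD8 T cells by 1.41 ± 0.29 (adjusted p = 0.00129). In ILC-like cells of Kaede-green 1 a single cell held 10 of the 18 UMIs, and the call did not pass with each cell thinned to 2000 UMIs (adjusted p = 0.0665). CD4 T cells exceeded NK cells (1.69 ± 0.35, adjusted p = 0.00118) and Tregs were below CD4 T cells (-1.27 ± 0.37, adjusted p = 0.0209). Both were lost without Kaede-green 1 (adjusted p = 0.0547 and 0.165), and the latter also without Kaede-red (0.096) and with the cells of several gates kept (0.0957).

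*Il10* and *Ebi3* were the Treg members of the group. *Il10* was at 73.4, 81.5 and 124 CPM in Tregs, at 31.4, 27.0 and 56.6 in CD4 T cells, and at or under 4.35 in the other gates. *Ebi3* was at 59.1, 63.1 and 77.5 CPM in Tregs, at 11.5, 19.5 and 39.2 in CD4 T cells, and at or under 1.93 in the other gates. In both genes Tregs stood above CD4 T cells in every library without overlap, and CD4 T cells above the rest. *Ebi3* was higher in Tregs by 1.62 ± 0.23 on the log2 scale (adjusted p = 0.000146) and *Il10* by 1.30 ± 0.37 (adjusted p = 0.0195). The *Il10* difference was not called without Kaede-green 1 (adjusted p = 0.138) or Kaede-green 2 (0.0541), or with DESeq2 (0.191). CD4 T cells exceeded CD8 T cells by 4.94 ± 0.46 in *Il10* (adjusted p = 2.24e-06) and 4.16 ± 0.28 in *Ebi3* (adjusted p = 9.06e-08). Against NK cells they were higher by 5.24 ± 0.48 (adjusted p = 3.76e-07) and 4.80 ± 0.30 (adjusted p = 6.89e-09). γδ T cells were below CD4 T cells in both, by log2 fold changes of -4.00 ± 0.75 (adjusted p = 0.0014) and -4.60 ± 0.56 (adjusted p = 2.58e-05).

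Since the CD4 T gate held Treg genes, its cells with no UMI of *Ikzf2* or *Il2ra* were also summed alone, a choice made after the levels had been seen. These were 225 of 412, 183 of 435 and 84 of 209 cells. *Il10* was then at 10.2, 5.38 and 1.80 CPM and *Ebi3* at 0, 7.69 and 14.4 CPM, below the whole gate in all 3 libraries. *Ifng*, at 147, 86.9 and 154 CPM, and *Ltb*, at 506, 455 and 772 CPM, were near the whole gate. Other genes were higher than in the whole gate in some libraries, with *Il2* at 11.7, 17.7 and 129 CPM, *Il17a* at 25.5, 55.4 and 37.7 and *Lta* at 13.1, 7.69 and 41.3. Of the 82 *Il2* UMIs of the Kaede-red gate, 72 were in these restricted cells, most of them in the single top cell described above. *Tnf* was at 42.3, 45.4 and 71.8 CPM, above the whole gate in each. *Il21* had 0, 0 and 4 UMIs in these cells, against 9, 6 and 8 in the whole gate. In these cells Tregs exceeded CD4 T cells by 3.77 in *Il10* (adjusted p = 6.3e-05) and by 3.45 in *Ebi3* (adjusted p = 1.23e-05), and the differences of γδ T cells from CD4 T cells were no longer called in *Il10* (adjusted p = 0.407) or *Ebi3* (0.0725). The restricted cells exceeded CD8 T cells by 2.51 in *Il10* (adjusted p = 0.032) and 2.30 in *Ebi3* (0.0138). Against NK cells the differences were 2.79 (adjusted p = 0.0156) and 2.95 (0.00248). All 4 log2 differences were smaller than those of the whole gate.

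**Figure D2:**
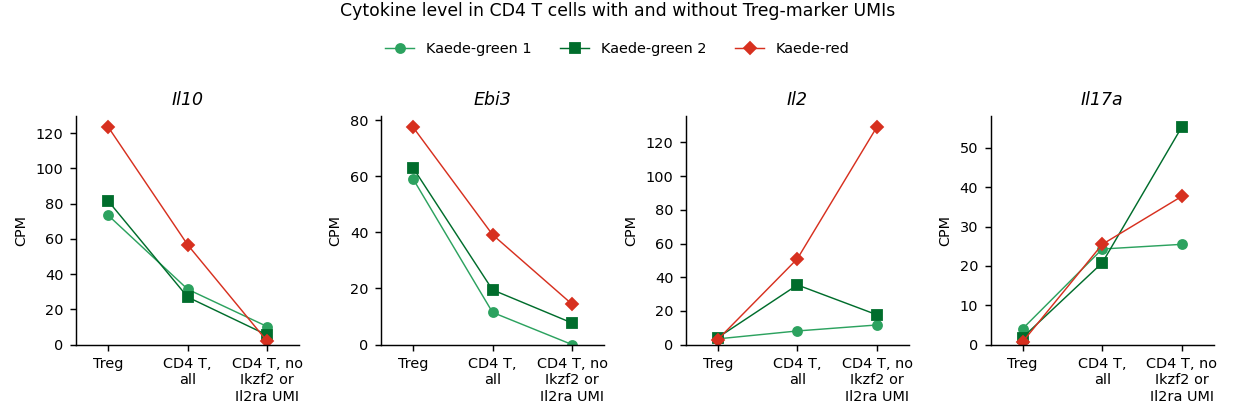
Levels in CPM in all cells of the CD4 T gate, in its cells with no UMI of *Ikzf2* or *Il2ra*, and in Tregs, with 1 point for each library. The genes shown are *Il10*, *Ebi3*, *Il2* and *Il17a*. *Il10* and *Ebi3* are lower in the restricted CD4 T cells than in the whole gate, at most 10.2 and 14.4 CPM.

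Counted over the group, CD8 T cells exceeded NK cells in 4 of 8 tested genes (*Tnf*, *Il2*, *Lta* and *Ltb*) and were lower in 0, where 14.3% of all genes were higher and 13.4% lower. ILC-like cells exceeded NK cells in 2 (*Lta* and *Ltb*) and were lower in 0, against 1.89% and 1.42% of all genes. CD4 T cells exceeded CD8 T cells in 5 (*Tnf*, *Il2*, *Il10*, *Il17a* and *Ebi3*) and were lower in 0, against 13.7% and 11.6%. They exceeded NK cells in 7 (all tested but *Ifng*) and were lower in 0, against 18.2% and 17.7%. Tregs were higher than CD4 T cells in 2 (*Il10* and *Ebi3*) and lower in 5 (*Ifng*, *Tnf*, *Il2*, *Il17a* and *Lta*), against 11.7% and 11.4%. γδ T cells were higher than CD4 T cells in 3 (*Tnf*, *Il17a* and *Ltb*) and lower in 4 (*Ifng*, *Il2*, *Il10* and *Ebi3*), against 8.2% and 6.25%. The median log2 fold change of the tested members was 0.92, 0.85, 1.96, 3.14, -1.26 and -1.21 in the 6 comparisons in this order, where that of all genes lay between -0.01 and 0.01. Comparisons that share a gate share its values. With cells of several gates kept, 467 of which met the CD8 T and Treg gates, CD8 T cells exceeded NK cells in 7 genes, adding *Il10*, *Il17a* and *Ebi3*, and Tregs differed from CD4 T cells in 4.

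**Figure D3:**
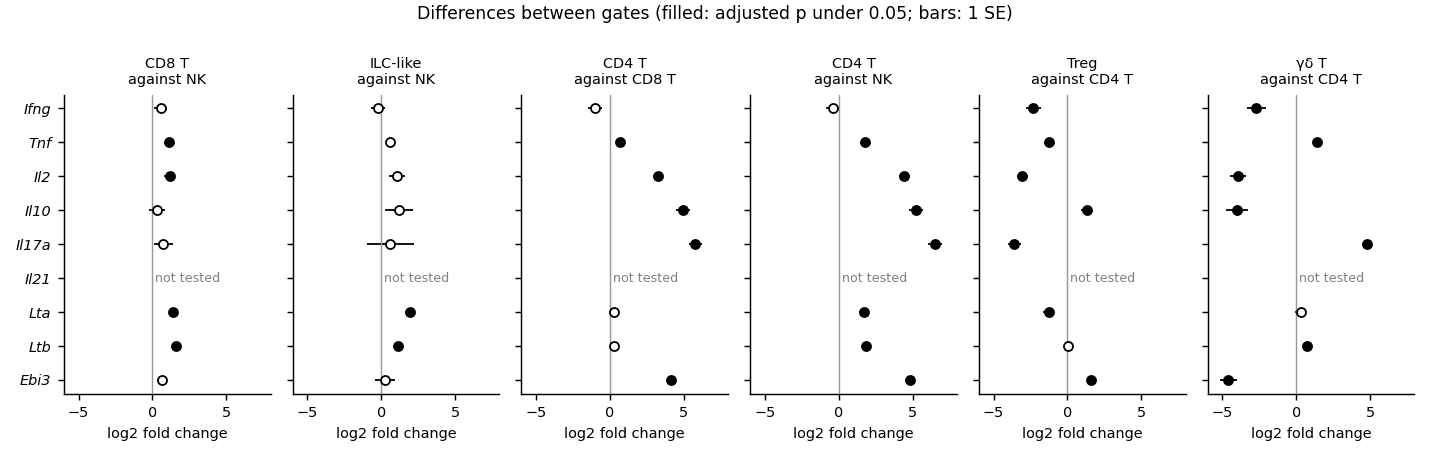
Log2 fold change of the 8 tested cytokine genes in the 6 comparisons of gates, with SE bars from the fit over 3 libraries and filled points for adjusted p under 0.05. The comparison of CD4 T cells with NK cells has 7 filled points to the right of 0, and that of Tregs with CD4 T cells has 5 to the left.

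Genes around the cytokines were followed in 4 lists, whose counts stand against the shares of all genes called in the same comparison, given above. In Tregs against CD4 T cells, for example, where 11.7% of all genes were higher and 11.4% lower, 2 of 15 receptors in each direction and 3 of 22 transcription regulators higher are shares near the background. Of 18 receptor genes 15 were tested, and 4 were higher and 5 lower in CD8 T cells than in NK cells, led by *Il21r*, the IL-21 receptor (2.00 ± 0.13, adjusted p = 7.95e-09), and *Tnfrsf1a*, a TNF receptor (-1.01 ± 0.18, adjusted p = 0.000386). In Tregs against CD4 T cells 2 were higher and 2 lower, with *Il2ra*, the high-affinity chain of the IL-2 receptor, at 595 against 135 CPM (2.18 ± 0.26, adjusted p = 2.8e-05) and *Il12rb2*, a chain of the IL-12 receptor, at 28.1 against 56.9 CPM (-1.01 ± 0.25, adjusted p = 0.00955). γδ T cells had 3 higher and 2 lower than CD4 T cells, and *Ifngr2*, a chain of the interferon-γ receptor, was at 86.3 against 15.7 CPM (2.63 ± 0.49, adjusted p = 0.00133). ILC-like cells had 2 higher and 1 lower than NK cells. CD4 T cells had 5 higher and 2 lower than CD8 T cells, and 5 higher and 3 lower than NK cells.

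Of 20 partner chains and other lymphocyte cytokines 11 were tested. CD4 T cells exceeded CD8 T cells in 5 and were lower in 3, with *Il17f*, the closest relative of *Il17a*, up by 6.05 ± 0.86 (adjusted p = 0.000259) and *Csf1*, the macrophage growth factor, lower (-1.86 ± 0.35, adjusted p = 0.00151). Against NK cells they were higher in 7 and lower in 3, including *Cd40lg* (8.95 ± 0.47, adjusted p = 1.15e-09) and *Tgfb1* (-1.44 ± 0.11, adjusted p = 8.19e-08). Tregs were lower than CD4 T cells in 7 and higher in 0, with *Csf2*, encoding GM-CSF, lowest (-5.14 ± 0.85, adjusted p = 0.000491). γδ T cells were lower in 5 and higher in 0. CD8 T cells exceeded NK cells in 4 and were lower in 2, with *Csf1* at 52.5 against 2.66 CPM (4.24 ± 0.34, adjusted p = 6.77e-08), and ILC-like cells exceeded NK cells in 1, *Tnfsf10*, encoding TRAIL (0.90 ± 0.11, adjusted p = 0.000153), and were lower in 0.

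All 22 regulators of cytokine transcription were tested. CD4 T cells exceeded CD8 T cells in 13 and were lower in 3, with *Maf*, a transcription factor of *Il10* and *Il21*, at 578 against 29.3 CPM (4.27 ± 0.34, adjusted p = 4.73e-07) and *Tbx21*, encoding T-bet, at 35.8 against 55.4 (-0.76 ± 0.16, adjusted p = 0.00362). γδ T cells were lower than CD4 T cells in 7, with *Batf*, an AP-1 family factor, at 37.1 against 93.4 CPM (-1.27 ± 0.14, adjusted p = 8.7e-06). Tregs had 3 higher and 4 lower than CD4 T cells, among them *Stat4*, the signal transducer of IL-12 (-1.46 ± 0.12, adjusted p = 1.04e-06). CD8 T cells had 4 higher and 9 lower than NK cells, led by *Irf4* (3.60 ± 0.28, adjusted p = 4.93e-08) and *Hlx* (-2.02 ± 0.34, adjusted p = 0.000232). CD4 T cells had 11 higher and 5 lower than NK cells, and ILC-like cells had 1 higher, *Ikzf2* (1.66 ± 0.20, adjusted p = 8.6e-05), and 0 lower. Of 10 regulators of cytokine mRNA, 5 were higher and 0 lower in CD4 T cells against both CD8 T cells and NK cells, with *Zfp36l1*, an mRNA-decay factor, up by 1.42 ± 0.22 (adjusted p = 0.000358) over CD8 T cells. Tregs had 1 higher, *Zc3h12d* (1.06 ± 0.17, adjusted p = 0.000479), and 2 lower, with *Arid5a* lowest (-1.78 ± 0.13, adjusted p = 3.45e-07). γδ T cells also had 1 higher and 2 lower than CD4 T cells, CD8 T cells had 2 higher and 1 lower than NK cells, and ILC-like cells had 0 in either direction.

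The colors were compared as levels with no test, since 1 Kaede-red library has no replicate. A gene was counted as past 2-fold where Kaede-red differed from each Kaede-green library by more than 2-fold in the same direction and by more than these differed from each other. Intervals are exact Poisson 95% intervals and cover counting error only. *Ifng* in NK cells was at 71.9 CPM in Kaede-red (4169 UMIs) against 216 and 244 in Kaede-green (4098 and 6328 UMIs), a log2 ratio of -1.59 (interval -1.65 to -1.52) and -1.76 (-1.82 to -1.71), where the Kaede-green libraries differed by 0.18. The median of all genes in NK cells moved by -0.19 and -0.18. The result depends on the scale, because Kaede-red NK cells held 19863 UMIs each on average against 7568 and 10338. Per cell, *Ifng* was at 1.43 UMIs in Kaede-red and at 1.63 and 2.52 in Kaede-green, which is not past 2-fold. *Ltb* in NK cells was at 3.86 UMIs per cell in Kaede-red against 0.840 and 1.44, and *Lta* at 0.15 against 0.022 and 0.051. Both were past 2-fold per cell, though in CPM their log2 ratios were 0.81 and 0.48 for *Ltb* and 1.40 and 0.61 for *Lta*. The share of all genes past 2-fold per cell was not counted. With more UMIs in each Kaede-red NK cell, a gene at equal CPM is also higher per cell, so these values partly restate that difference. Median UMIs per cell were also higher in Kaede-red in CD8 T and ILC-like cells, but not in every gate. In γδ T cells the medians were 5883 in Kaede-red against 5951.5 and 6396, and in Tregs 7039 against 9474 and 10158.5. The reason for the higher UMIs per NK cell was not tested. The UMIs per cell scale was chosen after the data had been seen.

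*Ifng* in ILC-like cells was also lower in Kaede-red, at 31.7 CPM against 368 and 151 (log2 ratios -3.54 and -2.25). In Kaede-green 1 a single cell held 253 of the 342 UMIs. Without the top cell of each library the levels were 29.9 CPM in Kaede-red against 98.0 and 125, still past 2-fold, and per cell they were 0.536 against 3.64 and 1.94 UMIs. In CD8 T cells *Ifng* was near equal, at log2 ratios of -0.07 and -0.37, and in CD4 T cells it lay within the Kaede-green range, at 152 CPM against 156 and 80.9. Tregs also had less *Ifng* in Kaede-red (-0.62 and -0.94), and so did γδ T cells (-0.88 and -1.83, 21 UMIs against 29 and 35). Neither gate was past 2-fold against both Kaede-green libraries. B-like cells (at least 2 UMIs of *Cd79a*, none of *Cd3e* or *Ncr1*), which should lack *Ifng*, were at 47.8 and 24.6 CPM in Kaede-green. In Kaede-red they were at 0, with only 7 cells. The ratios in Tregs and γδ T cells therefore cannot be told apart from a change in background.

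*Il17a* in γδ T cells was higher in Kaede-red, at 1157 CPM against 592 and 331, with log2 ratios of 0.97 and 1.81, so the former fell just short of 2-fold. Per cell it was past 2-fold, at 8.72 UMIs against 4.01 and 2.45 (log2 ratios 1.12 and 1.83). *Il10* in Tregs was at 124 CPM in Kaede-red against 73.4 and 81.5 (0.75 and 0.60), and *Ebi3* at 77.5 against 59.1 and 63.1 (0.39 and 0.30), both higher in Kaede-red and short of 2-fold. *Ebi3* in CD4 T cells was past 2-fold, at 39.2 CPM against 11.5 and 19.5 (1.76 and 1.01), close to the threshold, and *Il10* there was not (0.85 and 1.07). Per cell the log2 ratios of *Ebi3* in CD4 T cells were 1.87 and 0.79, which is not past 2-fold. *Tnf* in Tregs was past 2-fold, at 24.1 CPM against 11.7 and 11.3 (1.04 and 1.10). Per cell its log2 ratios were 0.73 and 0.68, short of 2-fold. A single Kaede-red Treg held 45 of the 169 *Tnf* UMIs, and without the top cells the levels were 17.8 against 10.7 and 11 CPM, short of 2-fold. *Il17a* in Tregs was lower in Kaede-red, at 5 UMIs against 19 and 17 (-2.40 and -1.24). The interval of the latter ratio, -3.13 to 0.16, includes 0, and single cells held 10 of the 19 and 6 of the 17 UMIs. The calls in Tregs were lost without the 5% highest Scrublet scores, and that of *Ebi3* in CD4 T cells with all deposited barcodes.

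Over the 6 gates the lower calls in CPM were therefore *Ifng* in NK cells, where 8.18% of genes were lower and 2.39% higher, *Ifng* in ILC-like cells (2.23% lower, 0.962% higher) and *Il17a* in Tregs (1.53% lower, 1.39% higher). The higher calls were *Tnf* in Tregs and *Ebi3* in CD4 T cells (2.56% of genes higher, 2.78% lower). In CPM no cytokine gene was past 2-fold in CD8 T cells, where 1.45% of genes were higher and 5.29% lower, or in γδ T cells, where 1.67% were higher and 1.31% lower. The shares are of genes with at least 10 UMIs in the gate.

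**Figure D4:**
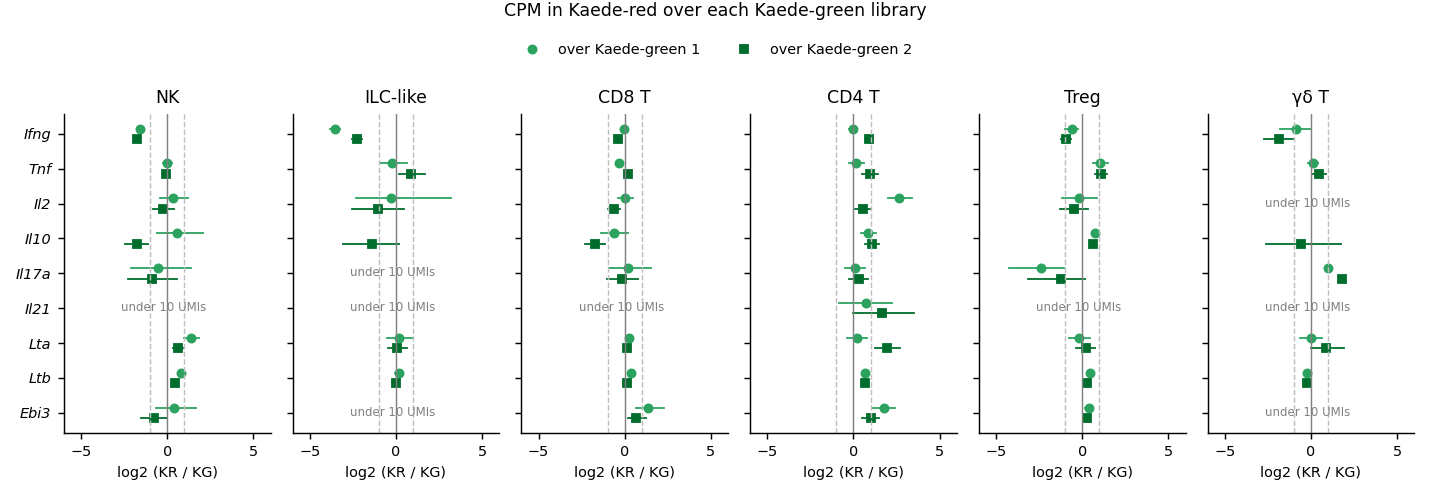
Log2 ratio of CPM in Kaede-red to each Kaede-green library by gate, with exact Poisson 95% intervals, dashed lines at 2-fold in either direction, and no point where a library had 0 UMIs. *Ifng* lies left of the 2-fold line in NK and ILC-like cells for both Kaede-green libraries and close to 0 in CD8 T cells, and *Il17a* lies to the right of 0 in γδ T cells, at 0.97 and 1.81.

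The share of cells with a UMI was compared after thinning each cell to 2000 UMIs, with exact Clopper-Pearson 95% intervals. *Ifng* was detected in 22.1% of CD8 T cells and 19.9% of NK cells, in 13.1% of CD4 T cells, 10.7% of ILC-like cells, 4.42% of Tregs and 2.59% of γδ T cells. B cells should lack it, and B-like cells, with a median of 4014 to 4975 UMIs before thinning, had it in 2.93% (1.35 to 5.49). The share in γδ T cells (median 5883 to 6396 UMIs) was therefore at background, and that in Tregs (3.51 to 5.48) within its interval. Among NK cells the share was 25.2% and 23.9% in Kaede-green and 11.9% in Kaede-red, and unthinned it was 45.4%, 52.3% and 39.6%. In CD8 T cells the order was the opposite, with 17.7% and 22.3% in Kaede-green and 24.4% in Kaede-red. *Il17a* was detected in 28.8% and 22.0% of Kaede-green γδ T cells and 46.1% of Kaede-red ones, in 1.52% of CD4 T cells and in 0 B-like and myeloid-like cells. *Il10* was detected in 13.6% and 12.2% of Kaede-green Tregs and 20.6% of Kaede-red Tregs, and *Ebi3* in 12.5%, 10.9% and 15.6% of them.

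*Ltb* was detected in 74.6% of γδ T cells and 19.1% of NK cells, the NK share being 14.3% and 16.8% in Kaede-green and 25.1% in Kaede-red. Myeloid-like cells had *Ltb* in 3.25%. *Tnf* was detected in 18.4% of γδ T cells, 6.44% of CD4 T cells, 4.18% of CD8 T cells and 1.49% of NK cells. *Lta* was detected in 4.21% of γδ T cells and 0.74% of NK cells, *Il2* in 1.70% of CD4 T cells (1.01 to 2.68) against 0.33% of B-like cells (up to 1.80), and *Il21* in 0.76% of CD4 T cells. All 3 are therefore detected in few cells at this depth.

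**Figure D5:**
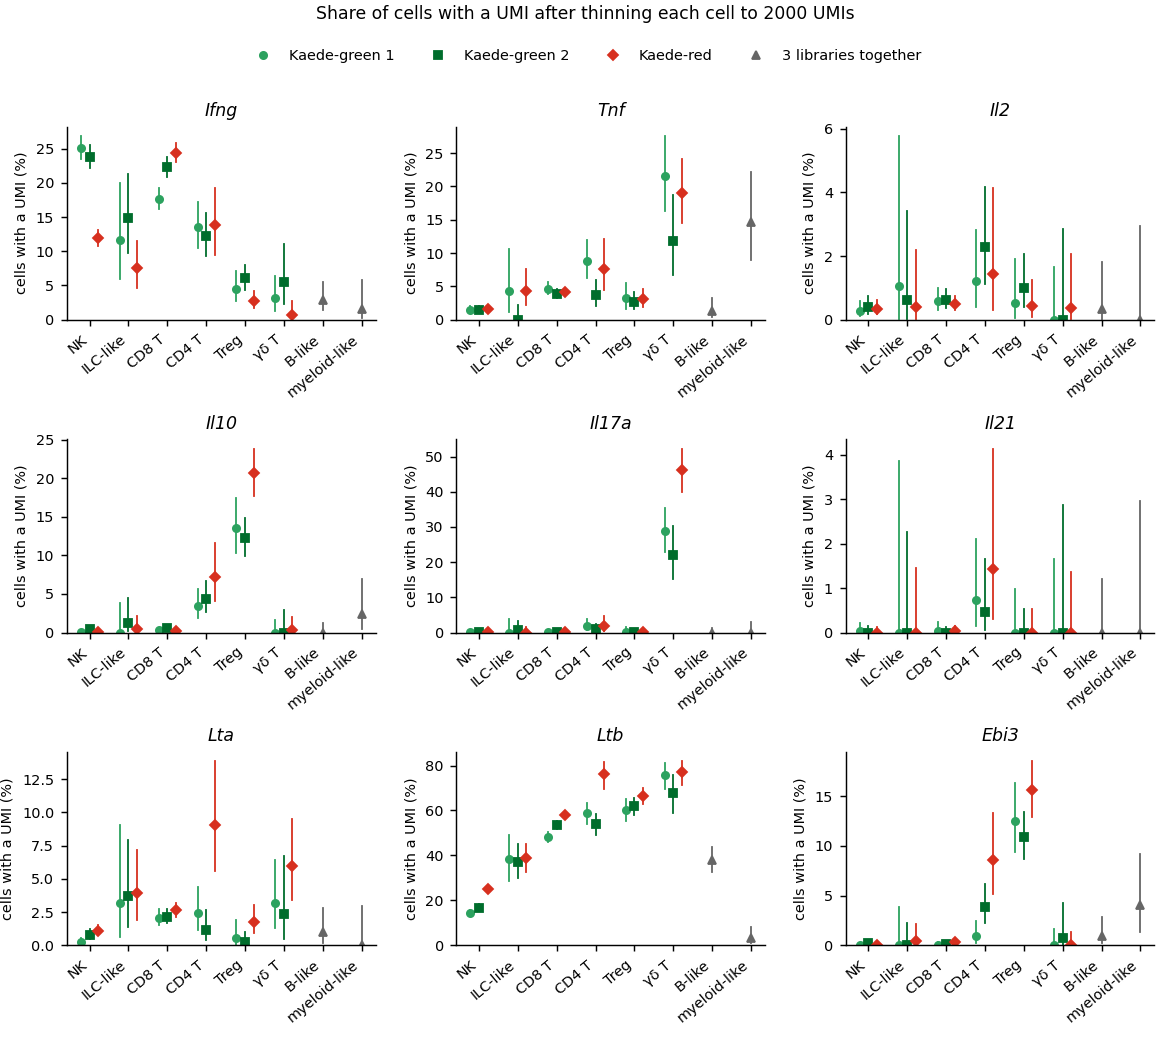
Percent of cells with at least 1 UMI of each gene after thinning to 2000 UMIs per cell, by gate and library, with exact 95% intervals for counting error, and gray triangles for B-like and myeloid-like cells of the 3 libraries together. For *Ifng* in NK cells Kaede-red (11.9%) lies below both Kaede-green libraries (25.2% and 23.9%), and for *Il17a* in γδ T cells it lies above them.

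Most of the message of several genes sat in few cells. Among CD8 T cells 7.0% had at least 10 *Ifng* UMIs and together held 60.1% of the gate's *Ifng*, with up to 452 UMIs in a cell. Among NK cells 3.51% held 46.2%. Among γδ T cells 16.3% had at least 10 *Il17a* UMIs and held 81.8%, and in the CD4 T gate 5 cells held 72.1% of *Il2* and 6 cells 75.8% of *Il17a*. In Tregs 35 cells of at least 10 *Il10* UMIs held 25.3%. This cutoff also follows the UMIs per positive cell, at a mean of 3.32 for *Il10* in Tregs and 11.6 for *Il17a* in γδ T cells. With the same top fraction taken of each gate, the 18 highest Tregs held 16.1% of *Il10*. The 6 highest γδ T cells held 15.8% of *Il17a*, and the 93 highest CD8 T cells 28.7% of *Ifng*. Of all UMIs in the cells kept, CD8 T cells held 51.0% of *Ifng* and NK cells 24.1%, γδ T cells 72.4% of *Il17a*, and Tregs 55.6% of *Il10* and 53.6% of *Ebi3*. For *Il2* the more numerous CD8 T cells held 33.7% and CD4 T cells 22.7%, although the level in CPM was higher in CD4 T cells.

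Detection of pairs in the same thinned cells was described for NK and T cells. *Tnf* was found in 4.59% of CD8 T cells with *Ifng* (interval 3.72 to 5.58) and in 4.06% of those without. This was 5.79% against 4.38% and 5.22% against 3.49% in the Kaede-green libraries and, in the other direction, 3.63% against 4.33% in Kaede-red. *Lta* was found in 3.07% of CD8 T cells with *Ifng* (2.37 to 3.91) and in 2.13% of those without (1.81 to 2.49), a gap of 4.28% against 1.62% in Kaede-green 1, 2.76% against 1.95% in Kaede-green 2 and 2.80% against 2.58% in Kaede-red. Tregs with *Ifng* had *Il10* in 8.97% (3.68 to 17.6) and those without in 16.1% (14.4 to 18), but in Kaede-green 1 the order was reversed (17.6% against 13.4%), and in Kaede-green 2 only 1 of 42 Tregs with *Ifng* had *Il10*. Since the *Ifng* share of Tregs lay within the B-like interval, Tregs with *Ifng* may not be a separate subset. γδ T cells with *Il17a* had *Lta* in 5.09% and those without in 3.73%, whereas in Kaede-red it was 4.84% and 6.90%. No pair was tested.

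The genes with the most similar pattern were found by Pearson's r of log2 CPM over the 18 sums, which share libraries and gates. For *Ifng* they were *Il12rb2* (0.89), *Fasl* (0.88) and *Ms4a4b* (0.87), for *Il17a* *Il17re* (0.97), *Palld* (0.95) and *March3* (0.94), and for *Ltb* *Cxcr6* (0.94), *Tnfaip8l1* (0.93) and *Trp53i13* (0.93). *Il10* was closest to *Izumo1r* (0.95), the folate receptor 4 gene of Tregs, then *Ebi3* (0.94) and *Lrba* (0.92). *Ebi3* was closest to *Ermn* (0.95), *Izumo1r* (0.95) and *Pparg* (0.95). *Tnf* was closest to *Tmem50a* (0.93), *Oser1* (0.92) and *Jtb* (0.92), *Il2* to *Gm14718* (0.88), *Lgals7* (0.82) and *Slc35b3* (0.81), and *Lta* to *Hk2* (0.79), *Rab4a* (0.79) and *Mapkapk3* (0.79). Among the members the highest were *Il10* with *Ebi3* (0.94) and *Il17a* with *Tnf* (0.85), and *Ifng* with *Il17a* was at -0.61.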

How the data were processed

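Single-cell libraries of TILs were made with 10x 3′ chemistry, and the deposited values are raw UMI counts for each gene in each barcode, with mm10 as the build in the submitters' processing notes. The notes name Cell Ranger 6.1.2 and the table headers 6.0.1. Gene names are those of the tables, and 0 columns were left without a sample. The study's cell filter was applied, requiring 1000 to 6000 detected genes and a mitochondrial share below 7.5%. Scrublet marked at most 1 cell per library, which is too few for a doublet caller to have worked, so no cell was removed as a doublet, and leaving out the 5% highest scores was an alternative.

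UMIs were summed over 3 libraries and 6 gates (18 sums) and tested with edgeR 4.0.16 in R 4.3.3 (TMM, filterByExpr, quasi-likelihood F test, gate plus library as block, adjusted p under 0.05). The library pairs the gates, since they were sorted and sequenced together. The tests across genes were checked on simulated data. For ratios between colors 0.5 was added to each count. Levels in CPM are shares of a gate's UMIs. Cells in several gates, reads and other time points were not used.

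Intervals cover counting error only. DESeq2 1.42.0, other filters, scalings and gates, and each library left out were alternatives. The cytokines and lists were chosen with earlier results of these data known. From each list, the gene with the largest fold change in each direction is named for each comparison where it passed and moved one way in all libraries, and for each cytokine the 3 genes of highest correlation. Some of these are given by count alone, and 1 result that the rule names is not reported here. Promoters came from RefSeq (GRCm38.p6), which matched 8 of the 9 genes, *Il10* not among them.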

Additional observations from a re-analysis of the deposited data

Results flagged for a closer look

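For 3 genes both Kaede-red to Kaede-green ratios pointed one way in one gate and the other way in another. *Il2* was higher in Kaede-red in CD4 T cells (mean log2 ratio 1.58) and lower in Tregs (-0.32), a difference of 1.90, and a single Kaede-red CD4 T cell held 70 of the 82 UMIs. Without the top cell of each library CD4 T cells stood at 7.54 CPM in Kaede-red against 4.73 and 17.2, so the ratios no longer pointed one way, and the Treg intervals (-1.19 to 0.85 and -1.30 to 0.34) include 0. *Il10* was higher in CD4 T cells (0.96) and lower in CD8 T cells (-1.17), a difference of 2.13. In the CD4 T cells with no UMI of *Ikzf2* or *Il2ra*, *Il10* was instead lower in Kaede-red. It was at 1.80 CPM there against 10.2 and 5.38 (1 UMI against 14 and 7). In CD8 T cells it had only 40 UMIs in Kaede-red against 24 and 84. The interval of the ratio to Kaede-green 1 (-1.39 to 0.17) includes 0, and the Kaede-green libraries differed by 1.08. *Ltb* was higher in 5 gates, most in CD4 T cells (0.64), and lower in γδ T cells (-0.21), a difference of 0.85. Among the former, ILC-like cells had ratios of 0.15 and 0.03, with intervals (-0.03 to 0.34 and -0.10 to 0.16) that include 0. These differences were not tested.

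*Tnf* was at 351 CPM in the myeloid-like cells of Kaede-red (193 UMIs in 37 cells), against 48.0 and 85.4 CPM in the Kaede-green libraries. These cells were few because the sort removed most of them, and they entered no comparison of the lymphocyte gates.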

How the results depend on the processing

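Of 666 values of the tested cytokine genes under alternatives, 626 stayed on their side of the threshold, 28 lost the call and 12 gained it. Sign changes that involved a call numbered 0. Values called in neither fit could change sign within the 626. An example is *Il17a* in ILC-like against NK, at 0.63 and, without the top cell of each sum, at -0.74. DESeq2 size factors, stricter gates, all deposited barcodes and leaving out the 5% highest Scrublet scores changed no call. With no replicate block (no library term), so without the pairing by library, 3, 2, 4, 7, 6 and 7 genes were called in CD8 T against NK, ILC-like against NK, CD4 T against CD8 T, CD4 T against NK, Treg against CD4 T and γδ T against CD4 T, in place of 4, 2, 5, 7, 7 and 7; the lost calls were *Il2* (adjusted p = 0.0736), *Tnf* (0.119) and *Il10* (0.0608). Leaving out each library gave 3 to 4, 2 to 2, 4 to 5, 6 to 8, 4 to 7 and 5 to 7. Without Kaede-green 2, the library with the lowest *Il21* level in CD4 T cells (1.54 CPM), *Il21* passed the filter through the CD4 T gate alone. It was then called in CD4 T against CD8 T, CD4 T against NK and Treg against CD4 T, and it is counted in those numbers. Since the gate that let it pass is also the higher side of each comparison, these calls lend no support. With cells kept in every gate they met, CD8 T against NK had 7 and Treg against CD4 T 4, and with cells thinned to 2000 UMIs ILC-like against NK had 1. Without the filter on low counts *Ifng* was called in CD8 T against NK (adjusted p = 1.88e-05), CD4 T against CD8 T (1.1e-14) and CD4 T against NK (0.00157), and *Ebi3* in CD8 T against NK (0.0382). The *Ifng* log2 fold changes there were 0.59, -1.07 and -0.48, near the 0.57, -0.99 and -0.42 of the main fit. The size of the differences thus hardly changed, so these calls depend on the filter, and why they changed was not tested. Over all genes the counts called were 3047 (1576 to 4259), 365 (116 to 819), 2782 (711 to 3381), 3961 (2263 to 4378), 2553 (613 to 3865) and 1594 (718 to 1952), in the same order, with the lowest without a Kaede-green library in all but CD4 T against CD8 T (cells in every gate they met) and CD4 T against NK (thinned cells). The causes were not tested.

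Between colors 5 cytokine and gate pairs were past 2-fold, 3 with all deposited barcodes, and 10 to 14 with a Kaede-green library left out, where only 1 ratio had to pass. *Ifng* in ILC-like cells stayed past 2-fold in every alternative, and *Ifng* in NK cells in all but UMIs per cell. Shares of cells with a UMI moved with depth. With all UMIs and with 1000 UMIs per cell they were 54.7% and 13.2% for *Ifng* in CD8 T cells, 40.3% and 10.5% for *Tnf*, 49.5% and 28.3% for *Il17a*, 13.4% and 1.62% for *Lta* and 93.2% and 57.9% for *Ltb* in γδ T cells, and 33.7% and 9.74% for *Il10* and 39.4% and 6.91% for *Ebi3* in Tregs. *Il2* in CD4 T cells was at 5.02% with all UMIs, and *Il21* there at 0.284% with 1000 UMIs.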
